A study of Homo sapiens with 6 samples.

Results

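Keratin genes were read across 6 RNA-seq libraries of Ishikawa, an estrogen-responsive human cell line from an endometrial adenocarcinoma. Members were taken by symbol alone: every row of the raw count table named KRT plus a number and at most one letter A, B or C. This gave 55 keratin genes of 26364 genes in the table. Keratin-associated proteins, keratin pseudogenes and antisense transcripts, 106 further rows that begin with KRT, were not members. There were 3 lines, namely wild-type (parental) Ishikawa and ETV4 knockout clone 1 and clone 2. ETV4 encodes a transcription factor of the ETS family. For every line 1 library was from cells given 0.1% DMSO, the vehicle, and 1 from cells given 10 nM estradiol (E2). All cells had first been kept in medium depleted of hormones. The protocol gives 8 h of treatment, whereas the sample characteristics give 1 h. Each knockout line is a single clone and parental cells gave 1 library for each treatment. Differences due to genotype and to line therefore cannot be told apart.

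Keratins are the intermediate filament proteins of epithelial cells. A filament is built from pairs of an acidic type I and a basic type II keratin, and the pair in use differs with the epithelium. Simple, single-layered epithelia such as endometrial glands are known for KRT8 with KRT18, together with KRT7 and KRT19. KRT5 is known from the basal layer of stratified epithelia and KRT17 from basal-like and stressed epithelial cells, while KRT10 belongs to the upper layers of the epidermis.

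The libraries held between 28037392 and 36829479 counts. ETV4 checked the labels: it had 586 counts (DMSO) and 1063 counts (E2) in the parental line, and from 71 to 122 counts in the clone libraries. Its log2 difference between clones and parental line was -3.04 (SE 0.21), and edgeR's quasi-likelihood test gave it an adjusted p of 0.00868 (up to 0.115 with single libraries left out). Of the 8 glandular markers, EPCAM (from 324 to 467 CPM), CDH1 (from 310 to 494 CPM) and PAX8 (from 277 to 451 CPM) were high in every library. CLDN4, ELF3 and SOX17 stood between 51.5 and 142 CPM. CD24 (from 9.03 to 20.6 CPM) and MUC1 (from 3.46 to 7.03 CPM) were lower. CPM is the count scaled to the TMM-adjusted size of the library. The 4 endothelial markers together ran from 1.65 to 2.46 CPM in the parental line and from 2.71 to 4.57 CPM in the clones, most of it VWF. Summed leukocyte markers reached at most 0.547 CPM, and the stromal genes DCN and LUM at most 0.0841 CPM, although COL1A1 stood between 44.7 and 75.2 CPM. The 9 stromal markers together ran from 61.5 to 88.6 CPM in the parental line and from 50.1 to 75.3 CPM in the clones, most of it COL1A1. Of the 6 stromal markers that could be tested, 5 had lower fitted levels in the clones (median log2 difference -1.23). In edgeR's test 3 of the 6 had an unadjusted p under 0.05, as did 11.4% of all tested genes, and none passed the adjusted threshold. DESeq2 called COL3A1, with 2.93% of the genes to which it gave an adjusted p. COL3A1 stood at 7.93 and 9.73 CPM in the parental line and from 1.33 to 3.33 CPM in the clones. The part of these markers in the keratin values was not tested. The parental DMSO library stood apart in scaling, with a TMM factor of 0.899 against 1.008 to 1.045 in the other 5. Genotype differences without it are given below for KRT5, KRT8, KRT17, KRT18 and KRT80.

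Of the 55 keratin genes, 9 were expressed, which here means 1 CPM or more on average across the libraries. A further 27 had at least 1 count but a mean under that level, and 19 had 0 counts in every library, which allows up to 0.0815 to 0.107 CPM per library (3 counts, counting error only). The simple epithelial class gave 4 of its 5 members: KRT7, KRT8, KRT18 and KRT19. KRT20, typical of intestinal and urothelial cells, was the member left out, at 2 to 9 counts. The basal and stratified class gave 3 of 19: KRT5, KRT10 and KRT17. The remaining expressed genes were KRT23 and KRT80, a type I and a type II keratin outside these classes. None of the 17 hair shaft keratins and none of the 9 root sheath keratins reached a mean of 1 CPM. KRT86, a hair keratin, came closest from below at a mean of 0.708 CPM (13 to 30 counts), and the expressed member with the mean nearest the limit from above was KRT7, at 11.9 CPM. KRT14, the usual type I partner of KRT5, had 0 counts in all 6 libraries, and KRT16 had at most 3. Of the 27 low members, 18 had at most 9 counts over all libraries together.

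KRT8, the main type II keratin of simple epithelia, was high in every library. Its DMSO values were 1126 CPM (parental), 1045 CPM (clone 1) and 1025 CPM (clone 2), and its E2 values 754, 656 and 591 CPM. KRT18, its type I partner, stood at 684, 665 and 592 CPM in DMSO and at 438, 432 and 352 CPM in E2, in the same order of lines. For both genes every E2 library lay below every DMSO library.

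Levels were compared between genes only per kilobase of the principal GENCODE transcript. On that scale KRT8 (278 to 530 CPM per kb) was above KRT18 (225 to 438), KRT18 above KRT19 (127 to 159) and KRT19 above KRT80 (17.0 to 60.3) within each library. KRT8 made up 38.3% to 44.5% of the summed per-kb keratin level and KRT18 31.2% to 36.8%, and KRT8 exceeded KRT18 by a factor of 1.12 to 1.27 per kb. The summed type II level over the summed type I level was 0.949, 0.996 and 1.04 in DMSO (parental, clone 1, clone 2) and 0.911, 0.854 and 0.834 in E2. The ratio was therefore lower in E2 in each of the 3 lines, and KRT19 took a larger share in E2 in each: it made up 11.5% to 13.6% of the summed per-kb keratin level in DMSO and 15.6% to 19.4% in E2. These are descriptions with no test. All keratins together took 0.199% to 0.238% of counts in the DMSO libraries and 0.140% to 0.155% in the E2 libraries. In such bulk libraries fewer cells with a transcript and less of it per cell cannot be told apart.

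**Figure D1:**
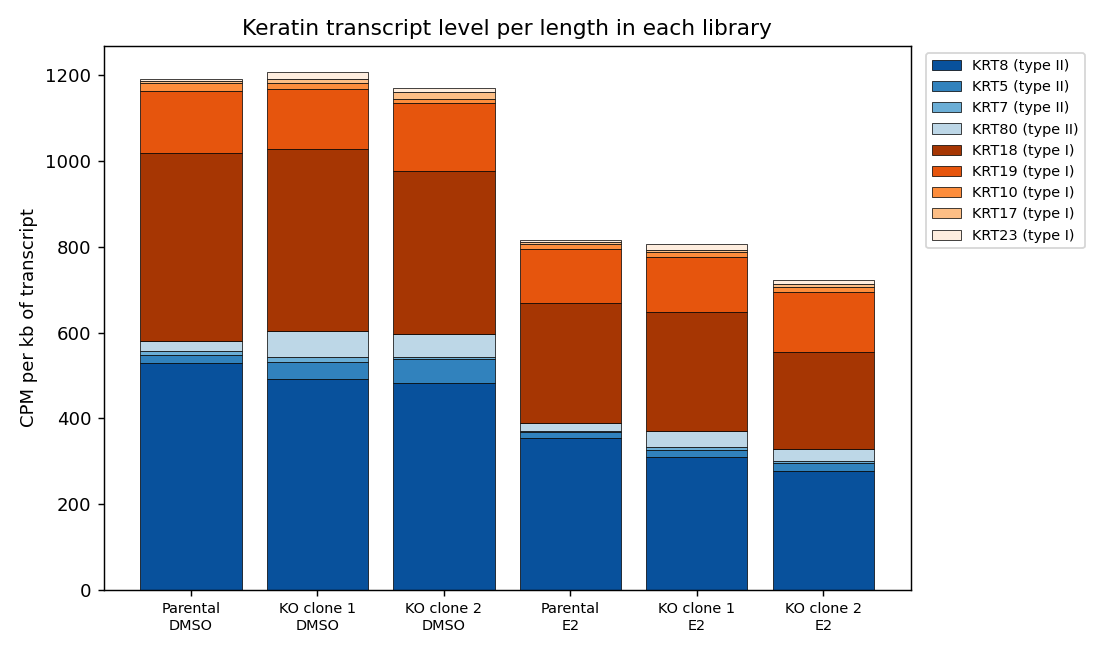
Stacked bars give the level of the 9 expressed keratin genes in each of the 6 libraries, in CPM per kb of transcript, with type II genes in blue and type I genes in orange. KRT8, KRT18 and KRT19 fill most of every bar, and the 3 E2 bars are shorter than the 3 DMSO bars.

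Promoter sequence was at hand for 3 of the 9 expressed keratins, and it is shown because KRT8 and KRT5 were lower in E2 in each line while the sign for KRT10 differed between lines. The 250 bases before the annotated start come from RefSeq (GRCh38.p14), all on the minus strand: chr12:52520395-52520644 for KRT5, chr12:52926470-52926719 for KRT8 and chr17:40822615-40822864 for KRT10. The KRT8 window belongs to only one of several annotated starts of that gene. Capitals mark matches, on either strand, to GGAA (the core of sites bound by ETS factors), to the longer CCGGAAGT, which contains it, to GGTCA (a single arm of the estrogen response element) or to the full palindromic estrogen response element.

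KRT5: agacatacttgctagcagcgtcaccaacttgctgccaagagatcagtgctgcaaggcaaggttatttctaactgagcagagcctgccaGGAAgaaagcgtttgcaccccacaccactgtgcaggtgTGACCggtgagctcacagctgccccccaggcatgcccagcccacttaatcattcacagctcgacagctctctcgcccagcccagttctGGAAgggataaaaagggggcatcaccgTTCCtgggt

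KRT8: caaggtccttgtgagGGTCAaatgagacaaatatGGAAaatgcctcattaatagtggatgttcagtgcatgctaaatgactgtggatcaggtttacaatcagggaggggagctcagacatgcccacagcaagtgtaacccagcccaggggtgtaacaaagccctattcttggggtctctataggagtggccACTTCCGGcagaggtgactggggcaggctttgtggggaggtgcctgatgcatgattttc

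KRT10: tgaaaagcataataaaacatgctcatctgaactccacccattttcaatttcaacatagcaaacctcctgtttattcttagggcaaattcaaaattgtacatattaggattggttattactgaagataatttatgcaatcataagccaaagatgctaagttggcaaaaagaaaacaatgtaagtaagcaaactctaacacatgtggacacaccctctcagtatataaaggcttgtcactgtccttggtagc

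The KRT5 window held GGAA at 3 places, 162, 36 and 9 bases before the start, and GGTCA at 1 place, 124 bases before it. In the KRT8 window CCGGAAGT lay 59 bases before the start, with its GGAA at 57, a second GGAA at 216 and GGTCA at 235. The KRT10 window held none of these letters. Over all 35116 promoter windows of this length, 92.7% held GGAA, 3.42% held CCGGAAGT, 32.6% held GGTCA and 0.0399% held the full element. These matches describe letters and do not show binding.

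The first comparison asked how E2 moved the keratins over the 3 lines. The 9 expressed genes all had a negative fitted change, and 7 of them (KRT5, KRT7, KRT8, KRT17, KRT18, KRT19 and KRT80) were lower in E2 in each line, against 25.7% of all 13308 expressed genes. None of the 9 passed the threshold, an adjusted p of 0.05 over all 15611 genes tested, in edgeR's quasi-likelihood test, which called 1.13% of genes. Their median log2 change was -0.67, against -0.03 over all expressed genes. At an unadjusted p under 0.05 there were 5 of the 9 (KRT5, KRT8, KRT17, KRT18 and KRT80), all lower, where 20.4% of all tested genes reached that p and 8.38% were lower. DESeq2's Wald test called the same 5, with 7.40% of the genes to which it gave an adjusted p, and limma-voom called 0.

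Among the simple epithelial keratins, KRT8 had a log2 change of -0.68 (SE 0.13, 95% interval -0.99 to -0.37), and edgeR's test gave an adjusted p of 0.0766. KRT18 had -0.67 (SE 0.14, 95% interval -1.01 to -0.33) and an adjusted p of 0.0928 in edgeR's test. The pair moved by like amounts in each line: -0.58 and -0.64 (parental), -0.67 and -0.62 (clone 1), and -0.79 and -0.75 (clone 2). KRT7, a type II partner of simple and glandular epithelia, stood at 15.8, 19.9 and 9.40 CPM in DMSO (parental, clone 1, clone 2) and at 7.002, 12.4 and 7.09 CPM in E2. It was lower in E2 in each line, but the levels of the lines differed so much that the E2 and DMSO libraries overlapped. The fitted change of KRT7 was -0.78 (SE 0.34), or -0.50 without the DMSO library of clone 1. With line as a replicate block it was -0.76 (SE 0.18; adjusted p = 0.0832 in edgeR's test). KRT19, a type I keratin of ducts and glands that lacks most of the tail domain, stood at 202, 193 and 221 CPM in DMSO and at 176, 178 and 195 CPM in E2. Its change of -0.17 (SE 0.12) had a 95% interval from -0.46 to 0.13, which overlapped the intervals of KRT8 and KRT18. Whether the response differed between these genes was not tested.

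KRT5 had the largest fitted change of the 9. It stood at 47.3, 99.3 and 141 CPM in DMSO (parental, clone 1, clone 2) and at 33.1, 44.0 and 45.3 CPM in E2. All E2 libraries lay below all DMSO libraries, as for KRT8 and KRT18, so 3 of the 9 genes were separated in this way against 11.1% of all expressed genes. The log2 change of KRT5 was -1.13 (SE 0.23, 95% interval -1.68 to -0.58) (adjusted p = 0.0882 in edgeR's test). KRT17 stood at 7.80, 16.1 and 28.5 CPM in DMSO and at 5.08, 7.29 and 11.5 CPM in E2. Its log2 change was -1.04 (SE 0.30; adjusted p = 0.156 in edgeR's test), and it passed with line as a replicate block, at -1.04 (SE 0.17) and an adjusted p of 0.0439. That block called 2.46% of all genes and no other keratin.

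KRT80, a type II keratin of many epithelia, stood at 86.2, 233 and 208 CPM in DMSO and at 65.5, 148 and 110.2 CPM in E2. It was lower in E2 in each line, with a log2 change of -0.65 (SE 0.16; adjusted p = 0.130 in edgeR's test). KRT10 had no common direction: it stood at 38.6, 30.6 and 20.2 CPM in DMSO and at 24.8, 26.3 and 28.1 CPM in E2, so that clone 2 had the lowest level in DMSO and the highest in E2. KRT23 stood at 9.68, 32.9 and 15.5 CPM in DMSO and at 8.52, 26.1 and 16.2 CPM in E2. Both had fitted changes close to 0, -0.15 (SE 0.22) for KRT10 and -0.19 (SE 0.31) for KRT23.

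The number of keratins past the threshold for E2 differed when libraries of clone 2 were left out, and so did the share of all genes. With its DMSO library left out there were 4 (KRT5, KRT7, KRT8 and KRT18), in a fit that called 10.9% of genes. With both of its libraries left out there were 6 (these, KRT17 and KRT80), with 21.6% of genes called. Without clone 1 there were 2 (KRT5 and KRT17), with 4.83% of genes called. Leaving out the parental DMSO or the parental E2 library left 0 keratins, in fits that called 0.361% and 0.336% of genes. In the 4 clone libraries alone 0 keratins were called with 0.329% of genes. With the replicate block there were 6 with 15.0% of genes, from a fit with 1 residual degree of freedom in which all genes took a common spread. The fits without a whole clone also kept only 1 residual degree of freedom, and its part in their counts was not tested.

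**Figure D2:**
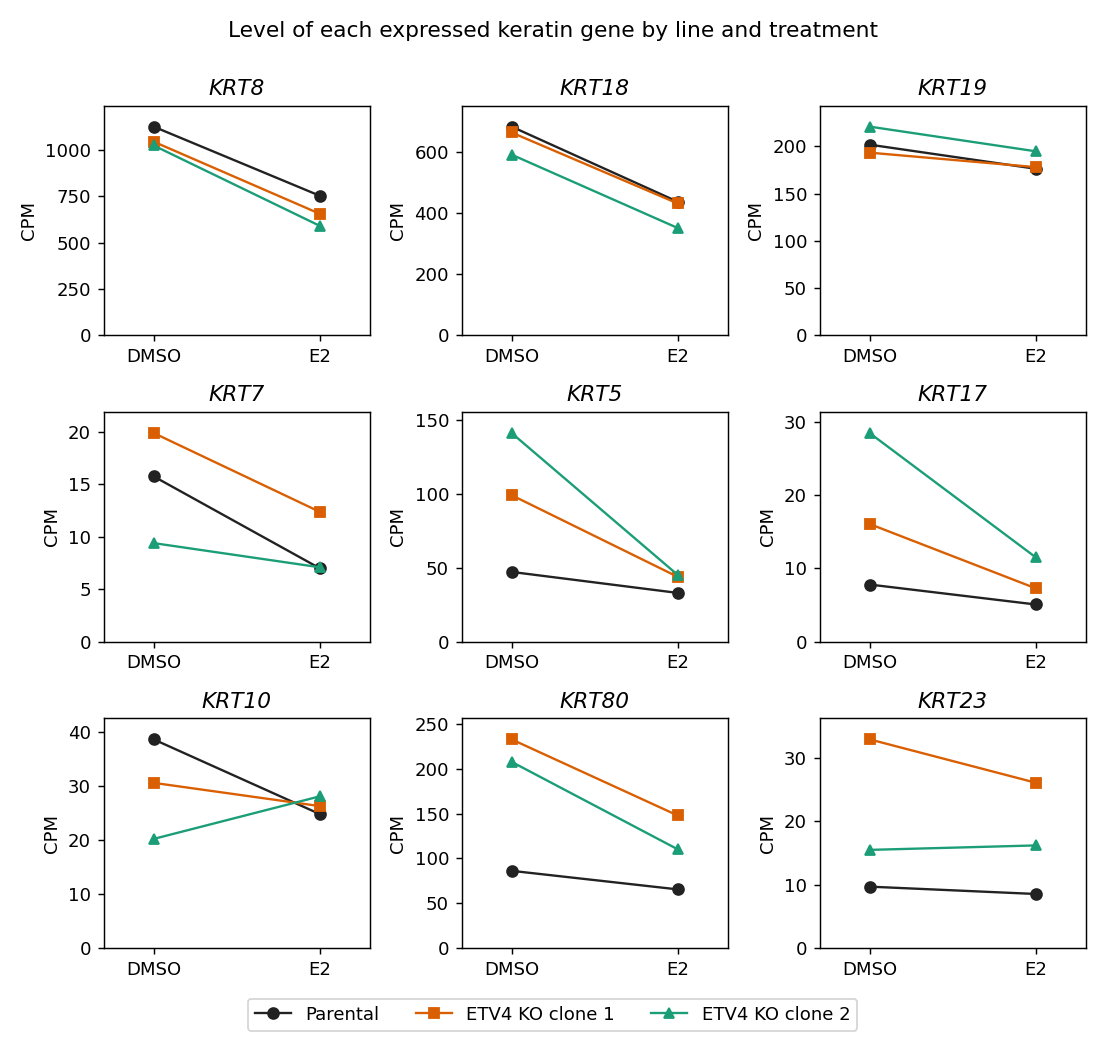
Each panel plots the level of 1 expressed keratin gene in CPM, on a linear axis from 0, in DMSO and in E2, with a line joining the 2 libraries of the parental line, clone 1 or clone 2. KRT8, KRT18 and KRT5 have every E2 value below every DMSO value, and for KRT10 clone 2 goes up while the other lines go down.

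**Figure D3:**
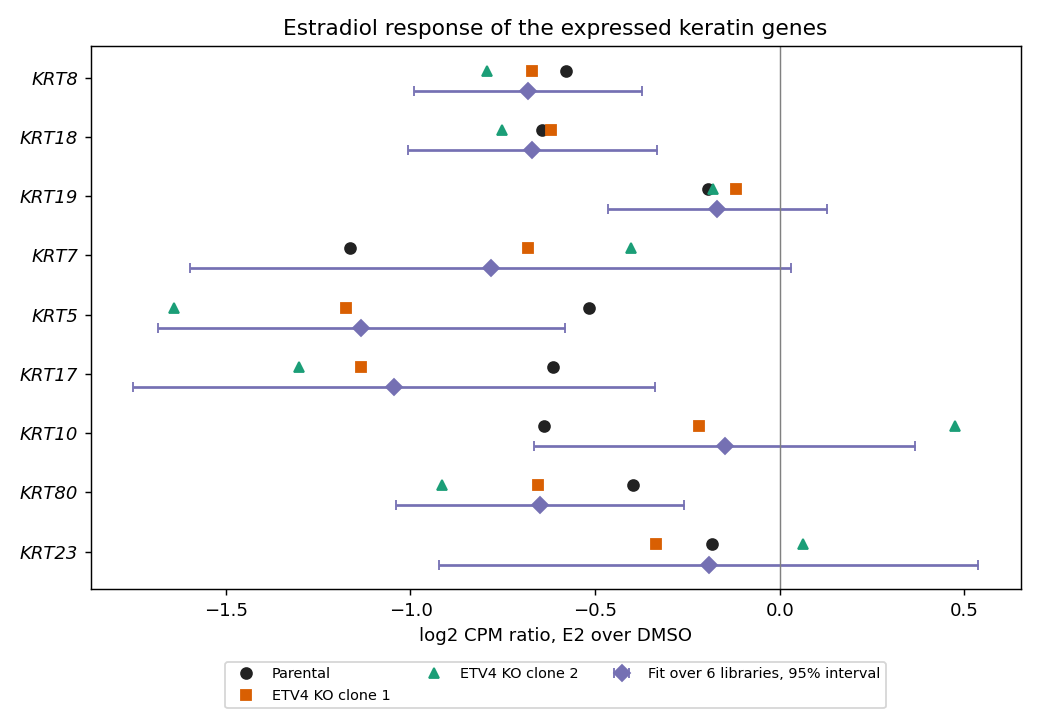
Small symbols give the log2 CPM ratio of E2 over DMSO in each line and diamonds the fitted change over the 6 libraries with its 95% interval. All 9 diamonds lie below 0, and those of KRT5, KRT8, KRT17, KRT18 and KRT80 have intervals that do not reach 0.

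Keratins under 1 CPM were too shallow to separate. Of the 7 that could be tested, KRT81 alone had an unadjusted p under 0.05 for E2, where 20.4% of all tested genes did. KRT81 had 3, 15 and 10 counts in DMSO (parental, clone 1, clone 2) and 1, 2 and 6 in E2 (adjusted p = 0.229 in edgeR's test). Among the others, KRT6A had 11, 14 and 21 counts in DMSO (parental, clone 1, clone 2) and 12, 7 and 6 in E2. KRT15, a basal cell keratin, had 1, 4 and 3 counts in DMSO and 3, 6 and 10 in E2, and KRT13, a keratin of moist stratified epithelia, had 6, 8 and 5 against 10, 13 and 6. Neither direction could be told from 0 for these genes, with adjusted p-values in edgeR's test of 0.318, 0.269 and 0.502. For genotype, KRT15 and KRT81 had an unadjusted p under 0.05 in edgeR's test, where 11.4% of all tested genes did. Both were higher in the clones, with adjusted p-values of 0.427 and 0.379.

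The next comparison set the ETV4 knockout clones against the parental line with treatment in the model. KRT80, KRT23, KRT17 and KRT5 were higher in both clones under both treatments, 4 of the 9 expressed genes against 17.6% of all expressed genes. KRT8 and KRT18 were lower in all 4 differences, 2 of 9 against 16.9%. In DMSO this direction rested on the TMM scaling. As an unscaled share of the counts of a library, both genes were higher in both clones there. None of the 9 passed the threshold in edgeR's quasi-likelihood test, which called 0.327% of genes. At an unadjusted p under 0.05 there were 4 (KRT5, KRT17, KRT23 and KRT80), all higher, where 11.4% of all tested genes reached that p and 6.63% were higher. DESeq2 called the same 4, with 2.93% of the genes to which it gave an adjusted p, and limma-voom called 0. The edgeR fit counted both libraries of a line as separate, so its SEs and intervals may be too narrow. With line as a random replicate block, limma-voom again called 0. Its adjusted p-values were then 0.0929 (KRT80), 0.345 (KRT5), 0.3495 (KRT23) and 0.351 (KRT17). The median log2 difference of the 9 was 0.17, against -0.0013 over all expressed genes.

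KRT80 was closest to the threshold. In DMSO the clones averaged 220.3 ± 17.7 CPM (SD, n = 2) against 86.2 CPM in the parental line, and in E2 129 ± 26.7 CPM (SD, n = 2) against 65.5 CPM. Every clone library lay above both parental libraries. The log2 difference was 1.16 (SE 0.18, 95% interval 0.73 to 1.60) (adjusted p = 0.0750 in edgeR's test). It was 0.97 without the parental DMSO library and 1.35 without the parental E2 library. KRT23 was the other gene whose clone libraries all lay above the parental ones, which makes 2 of 9 against 8.22% of all genes at this level. Its level was 24.2 ± 12.3 CPM (SD, n = 2) in the clones against 9.68 CPM in DMSO, and 21.1 ± 6.99 CPM (SD, n = 2) against 8.52 CPM in E2. The log2 difference of KRT23 was 1.32 (SE 0.35; adjusted p = 0.252 in edgeR's test), or 0.79 without clone 1.

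For KRT5 and KRT17 the clones stood further above the parental line in DMSO than in E2. KRT5 averaged 120.4 ± 29.8 CPM (SD, n = 2) in the clones against 47.3 CPM in DMSO, a ratio of 2.55, and 44.6 ± 0.934 CPM (SD, n = 2) against 33.1 CPM in E2, a ratio of 1.35. KRT17 averaged 22.3 ± 8.78 CPM (SD, n = 2) against 7.80 CPM in DMSO, a ratio of 2.85, and 9.40 ± 2.99 CPM (SD, n = 2) against 5.08 CPM in E2, a ratio of 1.85. Over both treatments the log2 differences were 0.87 (SE 0.25) for KRT5 and 1.20 (SE 0.33) for KRT17, and edgeR's test gave adjusted p-values of 0.293 and 0.273. The difference of KRT5 was 0.42 without the parental DMSO library and 1.35 without the parental E2 library. That of KRT17 was 0.88 without the parental DMSO library and 0.79 without clone 2.

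The abundant simple keratins had small fitted differences between genotypes. KRT8 had a log2 difference of -0.20 (SE 0.14, 95% interval -0.52 to 0.13), KRT18 of -0.14 (SE 0.15, 95% interval -0.49 to 0.21) and KRT19 of 0.06 (SE 0.13, 95% interval -0.25 to 0.37). These intervals leave room for log2 differences as far as -0.52 (KRT8), -0.49 (KRT18) and 0.37 (KRT19). A missed threshold does not show equal levels. Without the parental DMSO library the differences were -0.28 (KRT8) and -0.17 (KRT18). KRT7 was above the parental level in clone 1 under both treatments, and in clone 2 it was below in DMSO and within 0.02 of it in E2 (log2). KRT10 was below the parental level in both clones in DMSO and above it in both in E2, although by only 0.08 and 0.18 on the log2 scale in E2.

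The number of keratins past the threshold for genotype differed mainly without a whole clone, in fits with 1 residual degree of freedom. It was 4 (KRT5, KRT17, KRT23 and KRT80) without clone 2 and 3 (KRT5, KRT17 and KRT80) without clone 1, in fits that called 6.41% and 4.09% of all genes. Of the 6 fits without a single library, that without the DMSO library of clone 2 called 1 keratin (KRT80) and 0.632% of genes, and the other 5 called 0. Those without the parental DMSO or E2 library called 0.0129% and 0.00647% of genes, so few that their count of 0 says nothing about keratins.

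**Figure D4:**
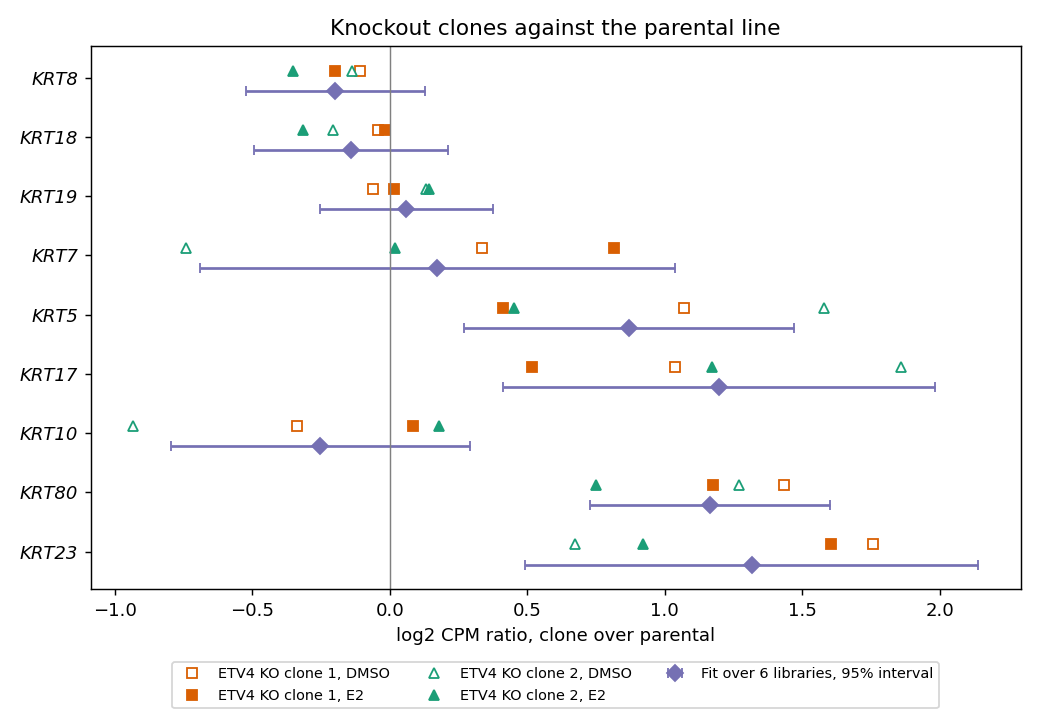
Squares and triangles give the log2 CPM ratio of each clone over the parental line, open in DMSO and filled in E2, and diamonds the fitted difference over the 6 libraries with its 95% interval. KRT5, KRT17, KRT80 and KRT23 lie to the right of 0 in all 4 differences, and KRT8 and KRT18 to the left of 0.

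Whether the E2 effect differed between clones and parental line was tested as an interaction. Without a block 0 of 15611 genes passed in edgeR's quasi-likelihood test, and 1 of the 9 keratins (KRT5) had an unadjusted p under 0.05, where 7.62% of all genes did. Limma-voom called no keratin. DESeq2 gave an adjusted p to 1030 genes only, among them KRT8, KRT18 and KRT19, which it did not call, and none for the other 6 keratins. With the replicate block KRT5 and KRT10 passed, 2 of 9 where that fit called 15.8% of all genes, a share close to theirs. KRT5 had E2 changes of -0.52 (parental), -1.17 (clone 1) and -1.64 (clone 2), and its interaction was -0.92 (SE 0.34, adjusted p = 0.617) without and -0.90 (SE 0.23, adjusted p = 0.00246) with the block in edgeR. KRT10 had changes of -0.64, -0.22 and 0.47, and its interaction was 0.74 (SE 0.38, adjusted p = 0.617) without and 0.76 (SE 0.22, adjusted p = 0.00781) with the block in edgeR. Without the DMSO library of clone 2 the unblocked value of KRT10 was 0.47. The blocked fit had 1 residual degree of freedom, all of it from the clones, and all genes took a common spread in it. The interactions of KRT8 (-0.15, SE 0.27) and KRT18 (-0.04, SE 0.31) were near 0.

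The clones were also set against each other, since keratins differed between them. KRT23 and KRT7 were higher in clone 1, by a log2 difference of -0.88 (SE 0.16) and -0.93 (SE 0.22) for clone 2 minus clone 1, and KRT17 was higher in clone 2, by 0.75 (SE 0.21). None of the 9 passed in edgeR's quasi-likelihood test, with adjusted p-values of 0.0928, 0.164 and 0.233 for these 3 genes, and the test called 0.871% of all genes. These 3 genes had an unadjusted p under 0.05, as did 12.1% of all genes, DESeq2 called KRT7 and KRT23 with 2.16% of genes, and limma-voom called 0. The same 3 passed without the E2 library of clone 2, where 5.85% of genes were called. They also passed without either parental library (17.8% of genes in each fit) and in the clone libraries alone (18.3% of genes). The fit on the clone libraries alone had 1 residual degree of freedom, and all genes took a common spread in it. Fits without a parental library drew their spread from the same clone libraries, so these passes are not independent of each other. KRT80, in contrast to KRT7, KRT17 and KRT23, had a difference between the clones of -0.28 (SE 0.17), with a 95% interval from -0.71 to 0.14.

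Genes that anchor or regulate keratin filaments were read from a list of 28, of which 24 could be tested. None passed in any of the 4 comparisons in edgeR's test, against 8, 2, 4 and 3 at an unadjusted p under 0.05 for E2, genotype, interaction and clones, where 20.4%, 11.4%, 7.62% and 12.1% of all genes reached that p. DESeq2 called 4 (ITGA6, ITGB4, JUP and PNN), 0 and 1 (PKP1) of them for E2, genotype and clones, and limma-voom called 0. Of all genes to which DESeq2 gave an adjusted p, it called 7.40%, 2.93% and 2.16% in these 3 comparisons. The median E2 change of the list was 0.09, against -0.67 for the expressed keratins. JUP (plakoglobin), a desmosome plaque protein, stood at 294, 276 and 351 CPM in DMSO (parental, clone 1, clone 2) and at 211, 180.4 and 176 CPM in E2. Its E2 change was -0.70 (SE 0.15; adjusted p = 0.0994 in edgeR's test), which DESeq2 put past the threshold. The change of JUP was -0.54 without clone 2 and -0.56 without the DMSO library of clone 2. ITGA6, a hemidesmosome integrin with the lowest adjusted p of the list for E2, had a change of the other sign, 0.57 (SE 0.12; adjusted p = 0.0982 in edgeR's test), and PNN, which was also higher in E2 in each line, had 0.77 (SE 0.20). ITGB4, the other integrin of the list, was lower in E2 in each line, at -0.715 (SE 0.24; adjusted p = 0.186 in edgeR's test). It stood at 171, 180 and 265 CPM in DMSO and at 144.5, 97.6 and 133 CPM in E2. ITGA6, PNN and ITGB4 were chosen after their values were seen. DSP (desmoplakin), which ties keratin filaments to desmosomes, stood between 237 and 470.4 CPM, and the linker PLEC (plectin) between 62.4 and 195 CPM, both lowest in the parental DMSO library.

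Of 16 other intermediate filament genes, 13 could be tested. For genotype, where edgeR's test called 0.327% of all genes, 1 of the 13 passed. VIM (vimentin), the filament protein of mesenchymal cells, was the only one past the threshold for genotype, with 108 counts (DMSO) and 95 counts (E2) in the parental line against 1 count in clone 2 in DMSO and 0 in the other 3 clone libraries. Its adjusted p was 0.0131 in edgeR's test, and it was 0.275 without the parental DMSO library, 0.144 without the parental E2 library and 0.0591 without the E2 library of clone 2. Even in the parental line VIM was low, at 3.63 and 2.54 CPM. The lamin gene LMNA, by comparison, stood between 134 and 197 CPM. For E2, interaction and clones, 0 of the 13 passed in edgeR, with 1, 1 and 2 at an unadjusted p under 0.05, and limma-voom called 0. Of all tested genes, 20.4%, 7.62% and 12.1% reached that p in edgeR's test.

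Markers of stratified and keratinizing epithelium were read because KRT5 and KRT17 are shared with it. Of 24 squamous differentiation genes, 13 had 0 counts in every library and 4 could be tested. None passed the threshold in any comparison in edgeR or limma-voom, nor for E2, genotype or clones in DESeq2. In edgeR's test 0, 0, 1 and 1 had an unadjusted p under 0.05 (E2, genotype, interaction, clones). Of all tested genes, 20.4%, 11.4%, 7.62% and 12.1% did. The keratinocyte genes IVL and LOR had 0 counts throughout. The basal cell factor TP63 stood at 6.25, 6.45 and 5.26 CPM in DMSO and at 4.14, 4.55 and 1.92 CPM in E2, lower in E2 in each line. TGM1 (transglutaminase 1), from the same list and chosen after its values were seen, was higher in E2 in each line, at 0.941, 1.96 and 2.44 CPM in DMSO and at 2.65, 2.05 and 2.54 CPM in E2. Summed over its 5 markers the keratinocyte list, nearly all TP63, ran from 5.26 to 6.45 CPM in DMSO and from 1.92 to 4.58 CPM in E2, from 4.22 to 6.39 CPM in the parental line and from 1.92 to 6.45 CPM in the clones, and its part in the keratin values was not tested.

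Several keratins share sequence or strand with neighbours, and whether counting used strand is not given in the sources used here. In GENCODE v29 a gene on the opposite strand overlaps KRT7 (KRT7-AS and KRT87P), KRT10 (TMEM99), KRT23 (AC004231.1) and KRT80 (LINC00592), and KRT8 and KRT18 overlap each other. TMEM99 differed from KRT10 in clone 2, where its level was the same under both treatments. It stood at 13.3, 11.4 and 7.57 CPM in DMSO (parental, clone 1, clone 2) and at 7.56, 8.21 and 7.57 CPM in E2. The pseudogenes KRT8P41 and KRT18P55, copies of the most abundant pair, had 2 to 13 and 9 to 21 counts. Reads of KRT8 and KRT18 that match such copies, and reads of overlapping partners, cannot be assigned with certainty.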

How the data were processed

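Poly(A)-selected, stranded RNA-seq libraries gave 6 libraries, per the labels' protocols. The deposited raw table holds whole-number counts per gene symbol. The submitters' processing notes name HISAT2, SAMtools, Subread and DESeq2 and the build hg19, without versions or roles. A second deposited table holds a normalized signal, labelled as normalized counts, which equalled the raw count divided by 1 size factor per library (0.926 to 1.19), and served only as an alternative scale. Headers writing DMOS and ER were read as DMSO and E2, as no other library of those lines was left to match.

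All 26364 genes entered the fits and keratin rows were read out. Counts were filtered with filterByExpr (15611 genes kept, among them 16 keratins), scaled by TMM and tested with edgeR 4.0.16 in R 4.3.3 (quasi-likelihood, Benjamini-Hochberg over all genes, threshold 0.05). Models held genotype and treatment, their interaction, or line and treatment (clone 2 against clone 1). Standard errors were derived from the log2 coefficient and the F statistic. Log2 ratios of single libraries used a prior count of 2. Lengths are those of the principal GENCODE v29 transcripts. Libraries of a line were paired because they come from the same line, and the clone difference correlated at 0.626 between DMSO and E2 (over genes tested). Line served as the replicate block, fixed in edgeR or random in limma-voom for genotype. DESeq2 1.42.0 and limma 3.58.1 were alternatives, with other scalings, filters, prior counts and left-out libraries. The script was tested on simulated data. Separate cultures are not stated, so p-values measure the spread between these libraries, which may be technical.

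Named genes were every keratin with a mean of at least 1 CPM, every keratin called, genes that edgeR's test called on the other lists, and 7 preset genes. Some further list genes were named after their values were seen. Members and lists were chosen with earlier results of these data known.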

Additional observations from a re-analysis of the deposited data

Results flagged for a closer look

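The E2 response of 2 keratins differed between the clones and the parental line in the interaction test with the replicate block. The interaction was -0.90 for KRT5 and 0.76 for KRT10 (log2 change in the clones minus that in the parental line). KRT5 was lower in E2 in all 3 lines, and more so in both clones. KRT10 was lower in E2 in the parental line and clone 1 and higher in clone 2. The blocked fit called 15.8% of all genes, so 2 of the 9 expressed keratins is close to the share over all genes. Neither passed without the block, and the cause was not tested. Groups of 1 or 2 libraries were too small to look for a library far from the others.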

How the results depend on the processing

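The 9 expressed keratins were the same number at a limit of 2 CPM, on total counts and on the deposited signal, and 10 at 0.5 CPM. No keratin was called in the 4 comparisons, nor with DESeq2 size factors, either other filter or limma-voom. DESeq2's Wald test called 5 keratins for E2, 4 for genotype and 2 between clones, and for the interaction it gave no adjusted p to 6 of the 9. The replicate block called 1 for E2 and 2 for the interaction, and it changed no other keratin call; it called 6 for E2 in the clone libraries alone, a fit chosen after seeing the data. Between clones, the clone libraries alone called 3, from a fit with 1 residual degree of freedom. With a library or clone left out, the count ran from 0 to 6 for E2, from 0 to 4 for genotype and from 0 to 3 between clones, and was 0 for the interaction. Where a group then kept 1 library, it was assumed to vary like the others. The interaction could not be fitted without a parental library or a whole clone.

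Over the whole table, calls ran from 40 to 3353 around 176 for E2, from 1 to 996 around 51 for genotype, from 0 to 2470 around 0 for the interaction and from 63 to 2754 around 136 between clones. ETV4 kept its sign, with adjusted p-values up to 0.115 in edgeR when 1 library was left out.

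Of 541 single-gene values under alternatives, 457 kept direction and side of the threshold, 56 newly passed, 6 no longer passed (ETV4 and VIM) and 22 changed sign. For E2, KRT10 was 0.089 in the clones alone and 0.11 with the replicate block there, and ran from -0.37 to 0.097 with single libraries left out (-0.43 without clone 2), as KRT23 did from -0.45 to 0.16. For genotype, such ranges were -0.11 to 0.47 for KRT7 (-0.38 without clone 1, 0.57 without clone 2) and -0.61 to 0.12 for KRT10, while KRT19 changed sign only without clone 2 (-0.026, against 0.12 without clone 1). The interaction of KRT23 was 0.023 in limma-voom and 0.034 with the replicate block, with a range of -0.45 to 0.60, and the ranges were -0.20 to 0.10 for KRT18 and -0.083 to 0.15 for KRT19. Between clones they were -0.14 to 0.68 for KRT5, -0.18 to 0.0075 for KRT8 and -0.69 to 0.19 for KRT10. The cause of these changes was not tested. Keratins under 1 CPM are limited by depth.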
